A study of Drosophila melanogaster with 12 samples.

Results

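The clonal *upSET* mutant line A7 was compared with the parental S2 line by nascent-RNA sequencing. The comparison used the sense counts of 2 S2 and 2 A7 libraries, chosen by their column names, which are 4 of the 8 nascent-RNA libraries and 4 of the 12 samples of the series. Both lines are S2-DRSC cells, a male and highly polyploid line derived from late embryos, and both were kept in the same Schneider's medium with serum and antibiotics. The S2 libraries are wild type at *upSET*. A7 was made by transfecting S2 cells with Cas-9, a guide RNA against *upSET*, and a fluorescent marker plasmid, and by regrowing 1 sorted cell. It carries a pair of 7 bp deletions by the start codon of *upSET*, and each shifts the reading frame after the first 2 or 3 amino acids. A7 is therefore a single clone, and an effect of the mutation cannot be told apart from other differences of this clone. The remaining libraries, from the *upSET* mutant clones G3 (a 67 bp deletion that removes the start codon) and B2 (a 1 bp deletion), entered the same fit.

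UpSET is a SET domain protein that acts with the Rpd3 and Sin3A histone deacetylase complex, and it is known for limiting open, acetylated chromatin around active genes. S2 cells resemble macrophage-like hemocytes, the blood cells that engulf dying cells and microbes and that lay down basement membrane. Nascent RNA is the RNA still held by transcribing polymerase on chromatin, so reads lie in introns as well as exons and follow transcription rather than the stock of mature RNA.

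The cut that produced A7 was directed by the guide named upset1, whose target is shown because the lesions of A7 lie around it. The 3 bases of the PAM, the motif that Cas-9 needs next to its target, are in capitals, and the sequence is written 5′ to 3′ on the minus strand.
upset1 target: aaccgagtcgtgactggacaTGG
The supplementary list of guides places these 23 bases at 3L:14000954-14000976 and names no assembly. That interval lies inside the extent of *CG9007*, the name of *upSET* in the count table, which runs from 13995223 to 14013251 on 3L in dm3, and 5731 bp from its lower end.

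Levels are given in CPM, the sense counts of a gene scaled to the size of its library, for replicate 1 and then replicate 2 of a line. Differences are fitted log2 fold changes (log2FC) of A7 over S2 with their standard errors, and a gene is called changed where the p-value adjusted over all tested genes is under 0.05 in edgeR's quasi-likelihood test with the replicate as a block. A7 libraries held 10902304 and 4792036 sense counts and S2 libraries 8333319 and 5375494. At these depths 3 counts equal 0.275 to 0.626 CPM in A7 and 0.36 to 0.558 CPM in S2. Antisense reads made up between 9.18% and 11% of the reads of these 4 libraries. The labels do not say that the replicates came from separate cultures. The p-values measure the spread left over all 8 libraries once the shift shared by each replicate is taken out, and this spread may be technical. Fewer cells making an RNA and less RNA per cell cannot be told apart in such bulk samples.

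Transcription of *upSET* itself went on in A7. *CG9007* had 544 and 567 CPM in S2 and 761 and 606 CPM in A7 (log2FC 0.30 ± 0.12 SE, adjusted p = 0.217). Both A7 values lay above both S2 values, but the difference did not pass the test. Small deletions at the start codon remove almost no countable sequence, so this level does not check the mutation. Among all 9612 tested genes, 886 rises and 892 falls had an unadjusted p under 0.05. Of the 10 tested genes on each side of *upSET*, 0 were called by edgeR, 8 had an unadjusted p under 0.05, and DESeq2 called *CG32138*. Their log2FC lay between -0.76 and 1.02 with a median of 0.19. All 10 genes after *upSET* on 3L had a log2FC above 0, from 0.26 at *blue* to 1.02 at *CG6661*. Among the 10 before it, *CG8833* alone had one above 0, at 0.13. The other components of the Rpd3 and Sin3A complex did not pass, with 0 of 14 listed genes called by edgeR or DESeq2, 2 at an unadjusted p under 0.05, and a median log2FC of -0.06, beside -0.04 over all tested genes.

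Of 9612 tested genes, 257 rose in A7 (2.67%) and 96 fell (0.999%), and at an unadjusted p under 0.05 the numbers were 886 and 892. These shares and numbers are the background for the counts of gene lists and arms below. The rises were larger than the falls. The median log2FC was 1.48 among the genes that rose and -0.72 among those that fell, and 92 of the rises but 11 of the falls were past 2 in size. Genes that rose had a median of 11.9 CPM in S2 against 15.8 CPM over all tested genes. Of these rises, 27 averaged under 1 CPM in S2 (10.5%, beside 6.12% of tested genes) and 50 over 100 CPM (19.5%, beside 15.9%). A gene averaging under 1 CPM in S2 generally needed libraries of other lines to pass the filter of 1 CPM in 2 libraries. The share of 10.5% is therefore partly set by the filter, and nothing is concluded from it. Genes that fell had a median of 109 CPM in S2. Called genes of both directions were long, with a median extent of 9736 bp for rises and 5199.5 bp for falls against 2791.5 bp over all tested genes. Without the replicate block the same libraries gave 34 rises and 2 falls, and the direction of each called gene named here by the rule was kept.

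**Figure D1:**
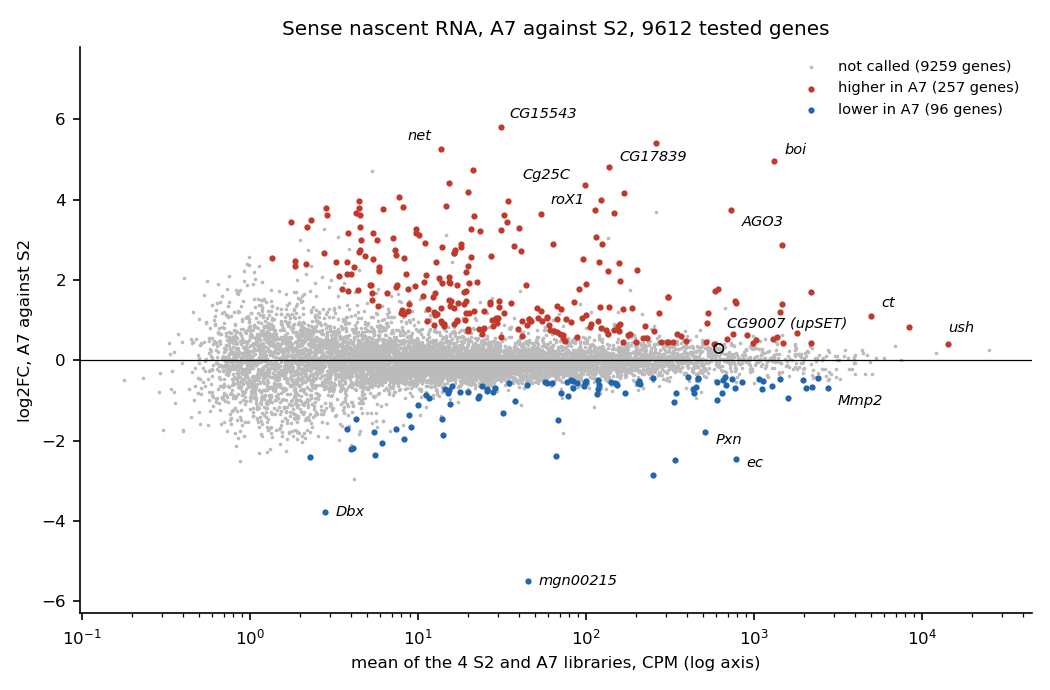
Each point is 1 of 9612 tested genes, with the mean CPM of the 4 S2 and A7 libraries on a log axis and the log2FC of A7 against S2 on the vertical axis. The 257 called rises (red) reach a log2FC of 5.81 and the 96 called falls (blue) reach -5.49, while *CG9007* (*upSET*, open circle) sits at 0.30 and was not called.

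Of the 12 largest rises, 6 averaged under 2 CPM in S2, and the others between 8.61 and 86.6 CPM. *CG15543*, a gene of unassigned role on 3R, had 1.275 and 0.353 CPM in S2 and 86.7 and 36.9 CPM in A7 (log2FC 5.81 ± 0.26, adjusted p = 1.72e-05). *net*, a basic helix-loop-helix transcription factor that shapes wing veins, had 0.812 and 0 CPM in S2 and 37.8 and 16.3 CPM in A7 (log2FC 5.26 ± 0.39, adjusted p = 0.000199). Both genes were thus almost silent in S2 and clearly transcribed in both A7 libraries. The same genes stood at 1.66 and 0.342 CPM on average in G3 and at 0.236 and 0.852 CPM in B2, so neither of the other clones transcribed them appreciably. *CG43693*, on 3L, had the same pattern, with 1.97 and 0.529 CPM in S2 and 56.6 and 26.3 CPM in A7 (log2FC 4.75, adjusted p = 0.00013), and 0.295 and 0.498 CPM on average in G3 and B2.

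Other large rises were shared in direction with G3, which is compared with the same S2 libraries. *boi*, which encodes a co-receptor for Hedgehog, had 124 and 49.4 CPM in S2 and 2739 and 2360 CPM in A7 (log2FC 4.97 ± 0.28, adjusted p = 6.46e-05). The 4 libraries were far from overlapping, and the averages in G3 and B2 were 1235 and 49.3 CPM. *CG17839* had 9.62 and 8.82 CPM in S2 and 265 and 268 CPM in A7 (log2FC 4.80 ± 0.37, adjusted p = 0.000248), with 117 CPM in G3 and 15.6 CPM in B2. *CG41378*, on the heterochromatic arm 2RHet, had 18.0 and 3.71 CPM in S2 and 432 and 593 CPM in A7 (log2FC 5.40 ± 0.57, adjusted p = 0.00164), with 747 CPM in G3 and 9.92 CPM in B2. In these 3 genes A7 and G3 were high and B2 was near S2.

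**Figure D2:**
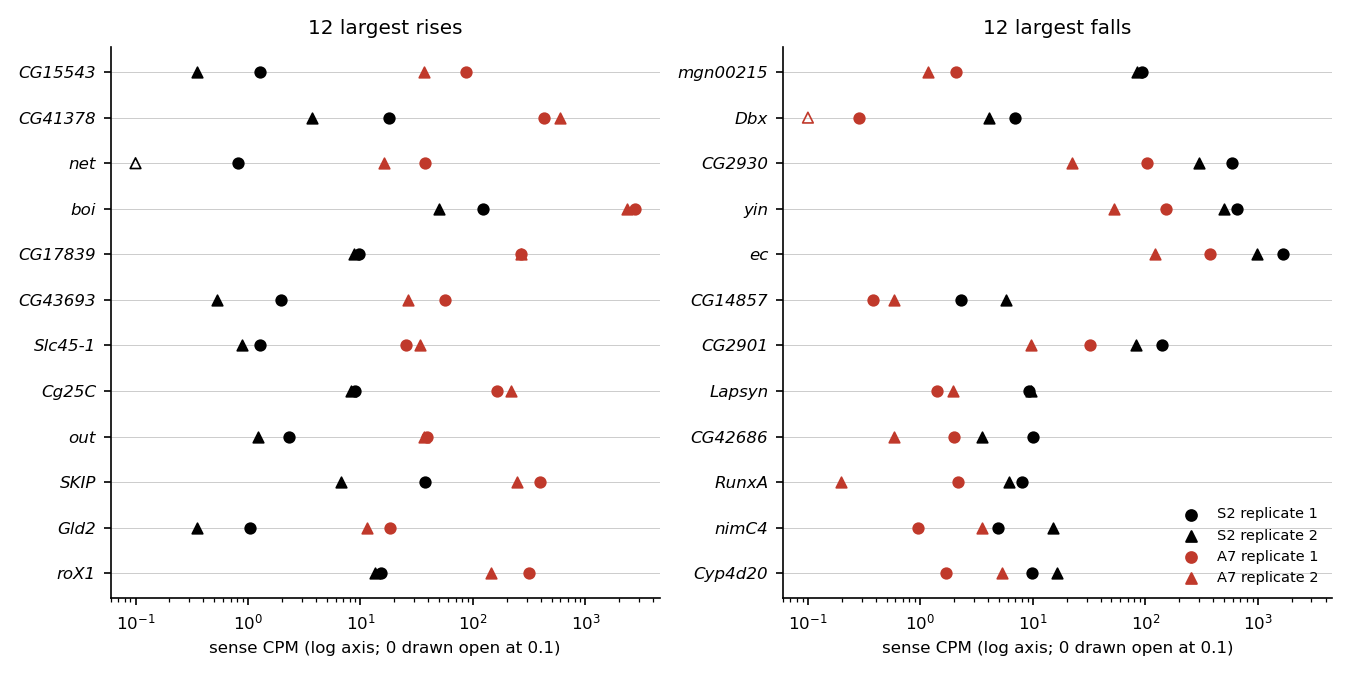
Sense CPM (log axis) of the 12 genes with the largest called rises (left) and the 12 with the largest called falls (right), with S2 in black, A7 in red, circles for replicate 1, triangles for replicate 2, and an open symbol at 0.1 for a value of 0. The A7 symbols lie to the right of both S2 symbols in each gene on the left, from *CG15543* to *roX1*, and to the left of both in each gene on the right, from *mgn00215* to *Cyp4d20*.

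Basement membrane genes changed in both directions. Collagen IV, the main network-forming collagen of basement membranes, is made of the chains encoded by *Cg25C* and *vkg*, which lie beside each other on 2L. *Cg25C* had 8.93 and 8.29 CPM in S2 and 162 and 219 CPM in A7 (log2FC 4.37 ± 0.38, adjusted p = 0.000441). *vkg* had 29.4 and 18.0 CPM in S2 and 221 and 194 CPM in A7 (log2FC 3.08 ± 0.42, adjusted p = 0.00561, and 0.0644 without the block). Both collagen genes rose with no overlap between the lines. Their averages in G3, 275 and 353 CPM, were higher still, but only through replicate 2. G3 had 126 and 424 CPM for *Cg25C* and 189 and 516 CPM for *vkg*. B2 was also above S2, with averages of 98.7 and 119 CPM and log2FC of 3.36 and 2.26 (adjusted p = 0.00844 and 0.0795). *wb*, a laminin alpha chain, rose from 12.4 and 2.82 CPM to 49.2 and 44.9 CPM (log2FC 2.59, adjusted p = 0.00466), and *dlp*, a glypican that binds secreted signals at the cell surface, rose from 31.8 and 33.0 CPM to 74.3 and 78.0 CPM (log2FC 1.23, adjusted p = 0.00866). The call of *dlp* was lost without A7 replicate 2 (adjusted p = 0.053) and without S2 replicate 1 (0.0769). *Kal1*, a secreted matrix protein related to anosmin, rose with little spread, from 4.41 and 3.35 CPM to 67.2 and 63.9 CPM (log2FC 3.98 ± 0.17, adjusted p = 1.68e-05).

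The enzyme that crosslinks collagen IV went the other way. *Pxn*, which encodes peroxidasin, had 808 and 791 CPM in S2 and 228 and 237 CPM in A7 (log2FC -1.78 ± 0.18, adjusted p = 0.00111). Its replicates were close to each other in both lines, and its averages in G3 and B2, 541 and 577 CPM, lay between those of S2 and A7. *Mmp2*, a membrane-bound metalloproteinase that trims the matrix, had 3297 and 3514 CPM in S2 and 1978 and 2225 CPM in A7 (log2FC -0.70, adjusted p = 0.00523, and 0.0595 without S2 replicate 1). Over the matrix list, 4 of 18 tested genes rose, 2 fell (33.3% called), and the median log2FC was 0.16. Over all tested genes 2.67% rose and 0.999% fell. The common laminin subunits *LanA*, *LanB1*, and *LanB2* had log2FC of -0.31, -0.22, and -0.33, and none was called. *trol*, the perlecan gene, had 87.0 and 66.7 CPM in S2 and 130 and 446 CPM in A7, and its log2FC of 1.74 missed the threshold (adjusted p = 0.0623).

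Hemocyte genes were also split. Of 22 listed genes 14 were tested, 3 rose and 2 fell (35.7% called), and their median log2FC was 0.01. The shares over all tested genes were 2.67% for rises and 0.999% for falls. *srp*, the GATA factor that specifies blood cells, stood at 1143 and 995 CPM in S2 and 1090 and 994 CPM in A7 and was not called (adjusted p = 0.882), so the main hemocyte regulator was transcribed alike in both lines. *CG8193*, the prophenoloxidase PPO2 that is typical of crystal cells and makes melanin, had 6.15 and 5.47 CPM in S2 and 43.1 and 28.4 CPM in A7 (log2FC 2.57 ± 0.20, adjusted p = 0.000284). In G3 the same gene averaged 0.0492 CPM, so the clones lay on opposite sides of S2. *Hml*, the clotting protein hemolectin, had 2.20 and 0.882 CPM in S2 and 30.5 and 5.69 CPM in A7 (log2FC 3.26, adjusted p = 0.0261), but the call was lost without A7 replicate 1 (adjusted p = 0.255), without S2 replicate 1 (0.206), and without S2 replicate 2 (0.0621).

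The receptors for dying cells *crq* and *nimC4* were among the falls, but both calls were lost without the replicate block. *crq*, a CD36-family receptor for apoptotic cells, had 56.9 and 83.6 CPM in S2 and 36.3 and 59.2 CPM in A7 (log2FC -0.57, adjusted p = 0.0307). The lines overlapped because replicate 2 was higher in both, and the call rested on comparing within replicates, with an adjusted p of 0.715 without the block. *nimC4*, a receptor that recognizes phosphatidylserine on dying cells, had 4.87 and 15.2 CPM in S2 and 0.944 and 3.53 CPM in A7 (log2FC -2.05, adjusted p = 0.0096, and 0.502 without the block). It lies within the extent of *nAcRalpha-34E*, which fell too (log2FC -1.65), and reads may be shared where both are on the same strand. *drpr*, the engulfment receptor Draper, averaged 377 CPM in S2 and 247 CPM in A7 and was not called (adjusted p = 0.173).

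Marker lists of other cell types held no called gene among neurons, glia and muscle, or germline. Of the neuronal, glial and muscle, and germline lists, 0 of 14, 0 of 12, and 0 of 10 tested genes were called by edgeR or DESeq2, and 1, 2, and 1 had an unadjusted p under 0.05, with medians of -0.17, -0.02, and 0.13. The calcium channel gene *cac* had the largest neuronal log2FC, 3.12, with 4.29 and 0 CPM in S2 and 9.44 and 45.7 CPM in A7 (adjusted p = 0.101). The neuronal genes summed to 156 and 89.8 CPM in S2 and to 148 and 147 CPM in A7, and *repo*, which defines glia, averaged 0.552 and 0.621 CPM. Of 4 tested fat body genes 1 rose, *Rfabg*, the apolipophorin that carries lipid in blood, from 100 and 137 CPM to 163 and 231 CPM (log2FC 0.73, adjusted p = 0.0063). The tested yolk protein and larval serum protein genes of that list were at most 1.61 CPM on average.

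Several genes for secreted ligands were called. *bnl*, the FGF that guides tracheal branching, had 83.7 and 56.5 CPM in S2 and 368 and 300.0 CPM in A7 (log2FC 2.25 ± 0.21, adjusted p = 0.000789). The ligands of the PDGF and VEGF-like receptor Pvr moved apart, although their genes are close together on 2L. *Pvf2* had 351 and 368 CPM in S2 and 575 and 822 CPM in A7 (log2FC 0.93, adjusted p = 0.0066), whereas *Pvf3* had 229 and 206 CPM in S2 and 138 and 111 CPM in A7 (log2FC -0.80, adjusted p = 0.0115). *Pvr* itself averaged 708 and 776 CPM and was not called. Over the list of Pvr, EGFR, and Ras genes, 2 of 25 rose, 1 fell, and the median log2FC was 0.11.

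In the Wnt pathway 3 of 21 tested genes of the Wnt and Hedgehog list rose (14.3%, beside 2.67% of all tested genes), 0 fell, and the median was 0.07. *fz2*, a receptor for Wingless, had 66.2 and 71.6 CPM in S2 and 183 and 165 CPM in A7 (log2FC 1.33 ± 0.16, adjusted p = 0.00361). *fz3*, another Wnt receptor, and *nkd*, an inhibitor induced by the pathway, had log2FC of 0.97 and 0.96 (adjusted p = 0.0234 and 0.00377). The Hedgehog core genes *hh*, *ptc*, *smo*, and *ci* were not called, in contrast to the co-receptor *boi*. Single ligands rose elsewhere. *Actbeta*, an activin-type ligand, had 1.62 and 0 CPM in S2 and 10.5 and 6.28 CPM in A7 (log2FC 2.98, adjusted p = 0.0271), a call lost without either A7 library (0.149 and 0.107). *spz*, the ligand of Toll, had 83.6 and 98.1 CPM in S2 and 164 and 149 CPM in A7 (log2FC 0.80, adjusted p = 0.0391), and *Dif*, an NF-kappaB factor that acts below Toll, rose from 68.3 and 58.2 CPM to 127 and 150 CPM (log2FC 1.13, adjusted p = 0.00549). Of the 27 tested immune genes these 2 were called, and of 4 tested antimicrobial peptide genes 0 were, by either edgeR or DESeq2 or at an unadjusted p under 0.05.

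**Figure D3:**
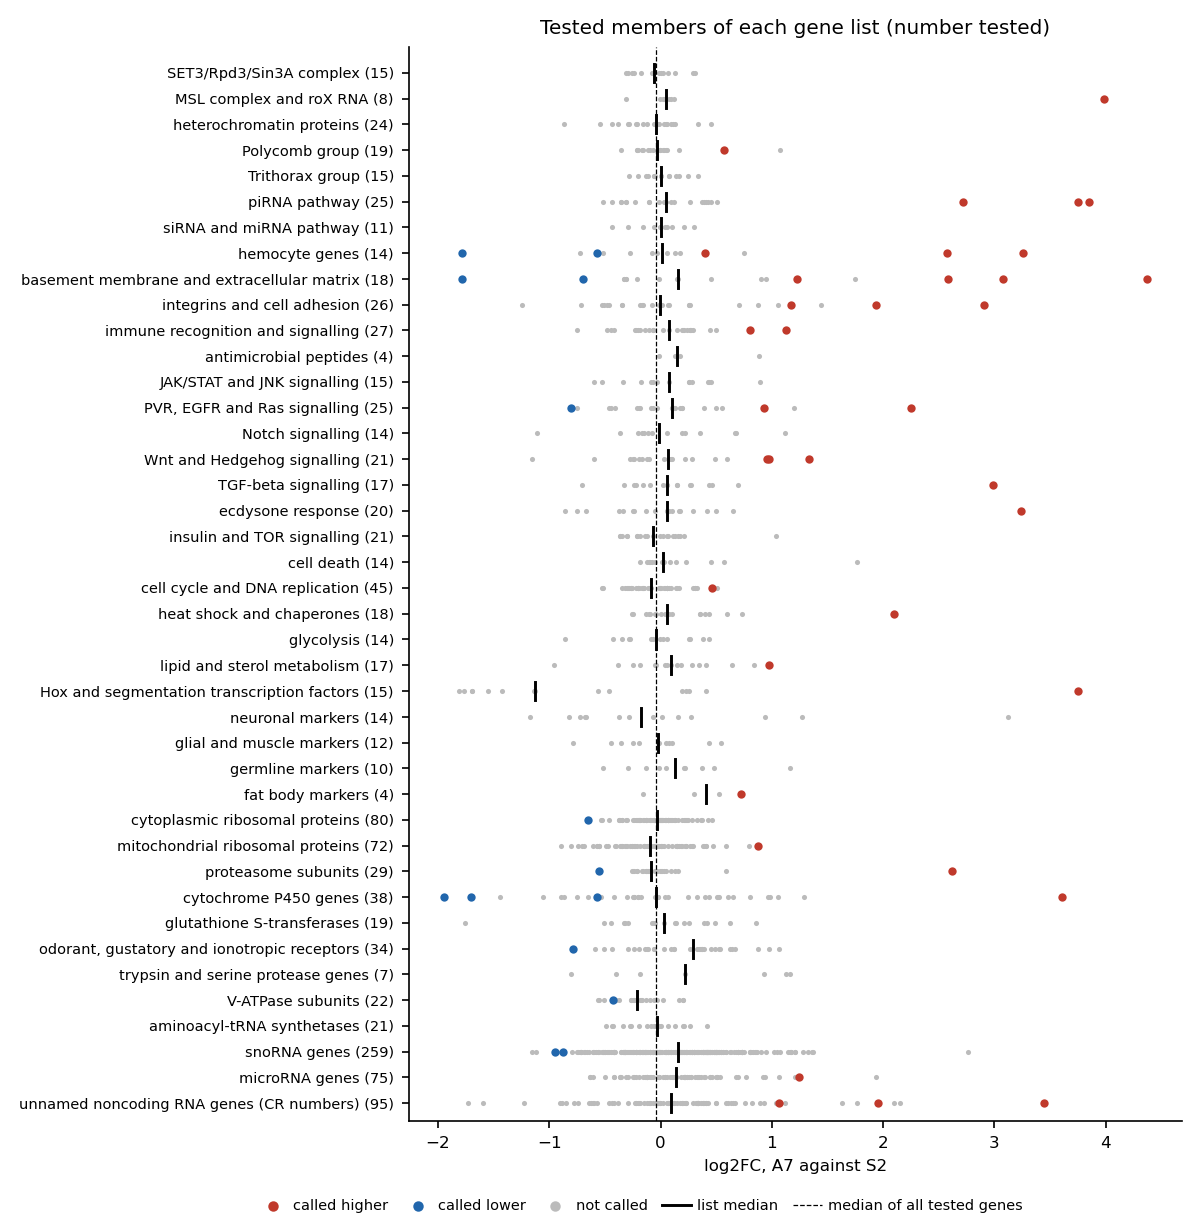
Each row is a gene list, with its number of tested members in parentheses, and each point is the log2FC of 1 member, red if called higher, blue if called lower, and grey if not called. Black bars are list medians and the dashed line is the median of all tested genes, -0.04. Some called members lie far from their list median, as *AGO3*, *BoYb*, and *del* do in the piRNA list (median 0.05). Others lie within the range of uncalled members, as *pho* (0.57) does in the Polycomb list, which reaches 1.07.

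In the hormone response, *E23*, an ABC transporter induced by ecdysone, had 8.001 and 3.53 CPM in S2 and 70.5 and 43.5 CPM in A7 (log2FC 3.24 ± 0.17, adjusted p = 5.82e-05). It stayed at 2.98 and 3.80 CPM in G3 and B2. The ecdysone receptor genes *EcR* and *usp* had log2FC of -0.05 and -0.13, and *E23* was the 1 called gene among 20 tested in that list (median 0.06). *mld*, a zinc finger factor needed for ecdysone synthesis, had 2623 and 1988 CPM in S2 and 1871 and 1426 CPM in A7 (log2FC -0.48, adjusted p = 0.0203).

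A few components of the piRNA pathway, which silences transposons mainly in the germline, rose. *AGO3*, a Piwi-family protein that takes part in amplifying piRNAs, had 148 and 61.9 CPM in S2 and 1546 and 1182 CPM in A7 (log2FC 3.75 ± 0.26, adjusted p = 0.00013). *BoYb*, a Tudor-domain protein, had 2.55 and 0.353 CPM in S2 and 24.3 and 31.8 CPM in A7 (log2FC 3.84 ± 0.42, adjusted p = 0.00191), and *del*, which encodes Deadlock of the Rhino complex, had 11.4 and 9.53 CPM in S2 and 65.0 and 78.2 CPM in A7 (log2FC 2.71 ± 0.16, adjusted p = 6.72e-05). Each of these genes was far above S2 in both A7 libraries. The other 22 tested genes of the list were not called, and among them *rhi* averaged 4.70 and 6.33 CPM, *piwi* 1.07 and 0.817 CPM, and *vas* 1.22 and 0.766 CPM. G3 and B2 averaged 669 and 379 CPM for *AGO3*, 80.7 and 55.1 CPM for *del*, and 13.2 and 3.39 CPM for *BoYb*. A transcript named *mgn00285*, which lies within the extent of *AGO3* and had 529 and 587 CPM in S2 and 298 and 341 CPM in A7, fell (log2FC -0.80, adjusted p = 0.00361).

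Single transcription factors with patterning roles changed. *tsh*, the zinc finger homeotic gene of the trunk, had 14.6 and 16.2 CPM in S2 and 152 and 270 CPM in A7 (log2FC 3.75 ± 0.39, adjusted p = 0.00149), with 136 CPM in G3 and 5.31 CPM in B2. *ct*, a homeodomain gene, rose from an already high 3578 and 2748 CPM to 7855 and 5815 CPM (log2FC 1.11 ± 0.09, adjusted p = 0.000248). *zfh1* and *ush*, both known from hemocytes, rose from 6252 and 5674 to 14150 and 7687 CPM and from 12580 and 12000 to 17830 and 14760 CPM (log2FC 0.84 and 0.40, adjusted p = 0.0494 and 0.0488). The call of *zfh1* was lost without A7 replicate 1 (log2FC 0.41, adjusted p = 0.0933), S2 replicate 1 (0.283), or S2 replicate 2 (0.0841), and that of *ush* without any one of the 4 libraries (0.0665 to 0.402). *Dbx*, a homeodomain gene, fell from 83 counts in the S2 libraries to 3 in A7, a ratio of 0.0316 (95% counting interval 0.00638 to 0.0955), and the call was lost without A7 replicate 1 (adjusted p = 0.0578). In G3 and B2 the log2FC of *Dbx* against S2 were -3.24 and -3.10. *RunxA*, a Runt-family factor, had 8.001 and 6.18 CPM in S2 and 2.17 and 0.196 CPM in A7 (log2FC -2.17, adjusted p = 0.0362). Its call was lost without A7 replicate 2 (log2FC -1.69, adjusted p = 0.0566), S2 replicate 1 (0.166), or S2 replicate 2 (0.0748), and its log2FC was -3.83 without A7 replicate 1.

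The Hox and segmentation list had a median log2FC of -1.12 over 15 tested genes, but only *tsh* was called. *Ubx* shows where that median came from. It had 14.6 and 0.176 CPM in S2 and 2.55 and 0.784 CPM in A7 (log2FC -1.77, adjusted p = 0.177). S2 replicate 1 alone was high, and the same held for *Scr*, *Antp*, *pb*, and *Abd-B*. Without S2 replicate 1 the median of the list was 0.49, so no direction is given for it.

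Called genes were also sorted by function after their values were seen, and these groups are descriptions without a test. Most groups were picked from a single direction of call, so they do not show which way a function moved. Among the rises, 11 genes for adhesion and guidance receptors had a median log2FC of 1.46, among them *Nrg*, the L1-type adhesion molecule, which went from 22.5 and 8.12 CPM to 132 and 95.1 CPM (log2FC 2.90, adjusted p = 0.000203). *kirre*, which mediates myoblast fusion, went from 72.0 and 23.5 CPM to 164 and 81.4 CPM (log2FC 1.46, adjusted p = 0.00164). *lea*, a Robo-family receptor for Slit, rose less, from 627 and 552 CPM to 920 and 930 CPM (log2FC 0.66, adjusted p = 0.0389). In the separate list of integrins and adhesion genes, *Nrg*, *Fas2*, and the integrin *scb* were called among 26 tested genes, with a median of 0.00. The call of *scb* (10.7 and 6.18 CPM against 22.0 and 51.6 CPM) was lost without A7 replicate 2 (adjusted p = 0.162) and without S2 replicate 2 (0.149).

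Another 12 of the rises, not a full list, were membrane transporters, with a median log2FC of 1.35. The transporter gene *yin* was among the falls (log2FC -2.49). *Slc45-1*, a sugar transporter, had 1.275 and 0.882 CPM in S2 and 25.4 and 33.7 CPM in A7 (log2FC 4.40 ± 0.29, adjusted p = 0.000121). *out*, a transporter of the monocarboxylate family on X, had 2.32 and 1.24 CPM in S2 and 38.9 and 37.1 CPM in A7 (log2FC 4.20 ± 0.25, adjusted p = 6.72e-05). Both were near 1 or 2 CPM in S2 and came up in both A7 libraries. *Ndae1*, an anion exchanger, and *mnd*, an amino acid transporter, had log2FC of 2.90 and 1.06 (adjusted p = 0.0072 and 0.00569). *PMCA*, the calcium pump of the plasma membrane, was already at 1036 and 1083 CPM in S2 and rose to 1546 and 1516 CPM (log2FC 0.53, adjusted p = 0.0142).

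Genes with known roles in synapses and excitability formed a further group of 9 rises, with a median of 1.48, although the neuronal markers were not called. Falls with such roles were not part of it, among them *Lapsyn* (log2FC -2.35) and *nAcRalpha-34E* (-1.65). *unc-13*, which primes synaptic vesicles, had 429 and 359 CPM in S2 and 1468 and 841 CPM in A7 (log2FC 1.49, adjusted p = 0.0036). *stj*, a subunit of calcium channels, had 2.55 and 1.06 CPM in S2 and 18.1 and 19.2 CPM in A7 (log2FC 3.12, adjusted p = 0.00528). *SKIP*, named for binding the Shal potassium channel, had 37.4 and 6.71 CPM in S2 and 391 and 245 CPM in A7 (log2FC 4.16 ± 0.38, adjusted p = 0.000626). *Gld2*, a poly(A) polymerase gene that lies inside *SKIP*, rose with it (log2FC 4.07, adjusted p = 0.00685), and reads of one cannot be separated from those of the other where both lie on the same strand. Without S2 replicate 1 the adjusted p of *Gld2* was 0.114.

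Among 11 metabolic enzymes that rose, with a median of 1.73, *Pepck*, the entry enzyme of gluconeogenesis, had 8.23 and 5.29 CPM in S2 and 24.1 and 40.2 CPM in A7 (log2FC 2.19, adjusted p = 0.0265). *cn*, the kynurenine hydroxylase of eye pigment synthesis, had 4.06 and 3.71 CPM in S2 and 21.4 and 37.6 CPM in A7 (log2FC 2.76, adjusted p = 0.000626). The lipid list contributed *v(2)k05816*, a fatty acid synthase, at a log2FC of 0.98 (adjusted p = 0.0142). *Duox*, an oxidase that makes hydrogen peroxide, and *Nos*, the nitric oxide synthase, had log2FC of 2.44 and 0.97 (adjusted p = 0.000301 and 0.0208).

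The falls were smaller and lay in more strongly transcribed genes. Of the cytoskeletal genes picked from the calls, 8 fell, with log2FC of -0.43 to -0.72, and 4 rose, namely *betaTub97EF*, *Sep4*, *Myo10A*, and *mim*, with log2FC of 3.16, 1.68, 1.48, and 0.51. *Act5C*, the main cytoplasmic actin, had 1198 and 1877 CPM in S2 and 716 and 1318 CPM in A7 (log2FC -0.63, adjusted p = 0.0277), and *Dhc64C*, the dynein heavy chain, had 1488 and 1810 CPM in S2 and 1072 and 1330 CPM in A7 (log2FC -0.46, adjusted p = 0.0234). A7 was lower within each replicate, but for *Act5C* the lines overlapped across replicates, and without the block its adjusted p was 0.78. *Cdc42* and *RhoL*, small GTPases that organize actin, had log2FC of -0.63 and -0.53 (adjusted p = 0.0283 and 0.0494).

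Picked from the falls, 6 vesicle transport genes had a median log2FC of -0.56. They included the syntaxin *Syx16* (20.4 and 18.4 CPM against 11.6 and 10.2 CPM, adjusted p = 0.0207). *Rop*, which binds syntaxins, was another (88.6 and 94.9 CPM against 57.1 and 69.2 CPM, adjusted p = 0.0341). *Syx16*, *Bap*, and *car* of this group, and *Cdc42* above, lie in a stretch of X where 71 of 82 tested genes had a log2FC below 0. Rises with roles at synaptic vesicles, such as *unc-13* (log2FC 1.49), were placed in the synapse group. Another 5 of the falls were genes of fatty acid, lipid, and energy metabolism, with a median of -0.81. They included *Thiolase* of beta oxidation (29.9 and 30.5 CPM against 15.3 and 17.1 CPM, adjusted p = 0.00884). *Mdh1*, a malate dehydrogenase, was another (21.4 and 23.8 CPM against 11.6 and 14.5 CPM, adjusted p = 0.019). Lipid genes that rose were placed among the metabolic enzymes above, such as *CG17374* (FASN3, log2FC 3.76), *fu12* (Agpat2, 2.55), and *v(2)k05816* (0.98). In *Syx16*, *Rop*, *Thiolase*, and *Mdh1* both A7 libraries lay below both S2 libraries. *Jheh1* and *Jheh2*, which break down juvenile hormone, had log2FC of -1.36 and -0.94 (adjusted p = 0.0301 and 0.0212).

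Cytochrome P450 genes, many of which detoxify foreign compounds, gave 1 rise and 3 falls among 38 tested, with a median of -0.04. *Cyp4d20* had 9.86 and 16.2 CPM in S2 and 1.70 and 5.29 CPM in A7 (log2FC -1.95, adjusted p = 0.00549). *Cyp4d20* lies within the extent of *CG33232*, which fell too (log2FC -0.535), and reads may be shared where both are on the same strand. *Cyp6a8* and *Cyp6v1* had log2FC of -1.70 and -0.57 (adjusted p = 0.0319 and 0.0275). *Cyp12c1* rose from 3 counts in S2 to 86 in A7, a ratio of 25.0 (95% counting interval 8.29 to 124, adjusted p = 0.0178). Without the replicate block the adjusted p of *Cyp4d20*, *Cyp6a8*, *Cyp6v1*, and *Cyp12c1* in edgeR were 0.453, 0.321, 0.2, and 0.147. *Cyp6v1* lies at the end of the stretch of X where 71 of 82 tested genes had a log2FC below 0.

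Genes of large complexes and core processes gave few calls. Of 80 tested cytoplasmic ribosomal protein genes of the list 0 rose and *RpL3* fell (3401 and 2039 CPM against 2015 and 1398 CPM, log2FC -0.65, adjusted p = 0.0142), with *snoRNA:Psi28S-291* inside its extent at -0.95 (adjusted p = 0.0133). *RpL10Ab*, which the list lacked and which was picked after its value was seen, had a log2FC of -0.56 (adjusted p = 0.0345). The proteasome list gave 2 calls among 29 tested genes. *Pros26.4*, an ATPase of its base, was at -0.55 (adjusted p = 0.0405). *Rpt6R*, a second copy of another base ATPase, was at 2.62 (1.04 and 3.00 CPM against 11.2 and 14.5 CPM, adjusted p = 0.0077). Without the block their adjusted p in edgeR were 0.394 and 0.165, and DESeq2 did not call *Pros26.4*. *Vha100-2* fell among 22 tested subunits of the proton pump (log2FC -0.43, adjusted p = 0.0423), whose median was -0.21. Of the 45 cell cycle and replication genes only *grp*, the Chk1 kinase, was called (log2FC 0.46, adjusted p = 0.0444), and of 14 glycolysis, 11 siRNA and microRNA pathway, 21 insulin and TOR, and 14 cell death genes 0 were called by edgeR. At an unadjusted p under 0.05 these lists held 2, 1, 6, and 3 genes, and DESeq2 called 1 of them, *Thor*, the inhibitor of the cap-binding protein.

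Genes of chromatin regulators gave few calls. Of 24 heterochromatin proteins 0 were called by edgeR or DESeq2 (5 at an unadjusted p under 0.05, median -0.04), of 15 Trithorax genes 0 were called by either (2 at an unadjusted p under 0.05, median 0.00), and of 19 Polycomb genes only *pho*, a DNA-binding recruiter, rose, from 169 and 182 CPM to 243 and 278 CPM (log2FC 0.57, adjusted p = 0.0172). The MSL complex and its *roX* RNAs bring about dosage compensation, the raised transcription of the single male X. *roX1* had 15.2 and 13.6 CPM in S2 and 316 and 146 CPM in A7 (log2FC 3.98 ± 0.53, adjusted p = 0.00549, and 0.0581 without the block). *roX2* averaged 144 CPM in S2 and 152 CPM in A7, and *msl-2* averaged 27.3 and 30.2 CPM. Thus *roX1* was the 1 called gene of 8, and it stood at 4018 CPM in G3 and 32.2 CPM in B2.

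Genes on both sides of *roX1* on X fell in A7. *ec*, a gene of eye development that ends just before *roX1*, had 1665 and 975 CPM in S2 and 376 and 121 CPM in A7 (log2FC -2.45 ± 0.41, adjusted p = 0.0144). *CG2901*, inside the extent of *ec*, had 142 and 83.3 CPM in S2 and 32.1 and 9.61 CPM in A7 (log2FC -2.38, adjusted p = 0.0142). *yin*, an oligopeptide transporter that starts 4.1 kb after the start of *roX1*, had 648 and 502 CPM in S2 and 152 and 52.4 CPM in A7 (log2FC -2.49, adjusted p = 0.0186). *CG2930*, the next gene, had 584 and 302 CPM in S2 and 103 and 22.4 CPM in A7 (log2FC -2.85 ± 0.52, adjusted p = 0.0203). In all 4 genes the higher A7 library was below the lower S2 library, while their log2FC in G3 and B2 lay between -0.35 and 0.01. The difference of A7 from the mean of G3 and B2 passed the test in each of them (adjusted p of 0.0145 to 0.0245). The calls were lost without S2 replicate 1, at adjusted p of 0.0926, 0.0965, 0.106, and 0.129. Farther out, *VhaAC39-1* and *tlk* had log2FC of -0.37 and -0.21 and were not called, while *lva*, which starts 96.6 kb after the start of *roX1*, fell (log2FC -0.44, adjusted p = 0.0425) and had a log2FC of -0.46 in G3.

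**Figure D4:**
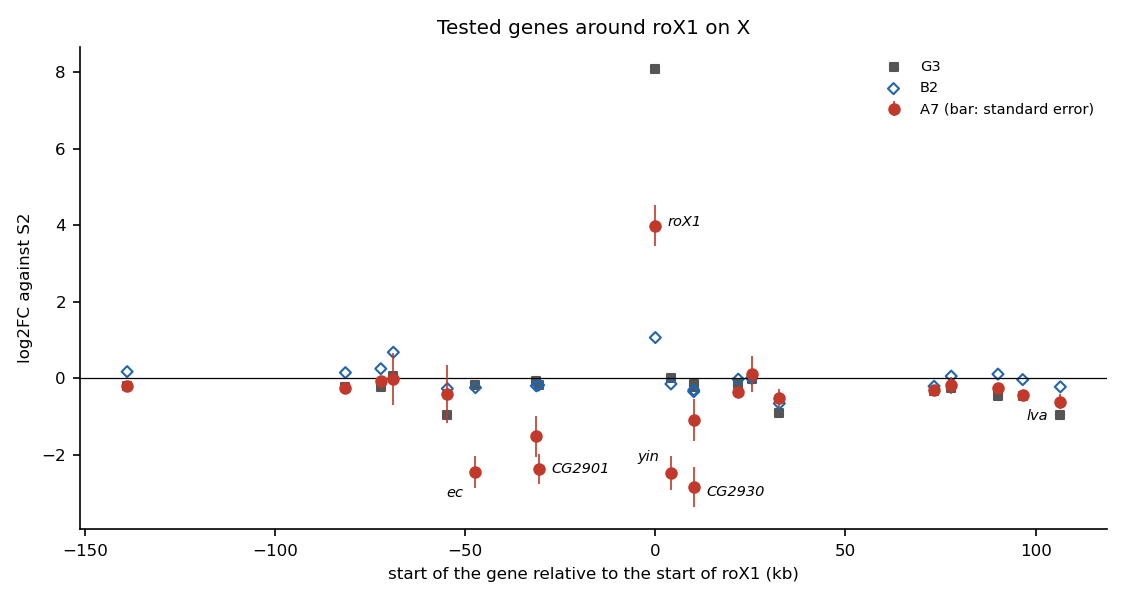
The log2FC against S2 of each tested gene near *roX1* on X, plotted at the distance of its start from the start of *roX1* in kb, for A7 (red circles with standard errors), G3 (squares), and B2 (diamonds). *roX1* is at 3.98 in A7 and 8.09 in G3, and *ec*, *CG2901*, *yin*, and *CG2930* lie between -2.38 and -2.85 in A7 alone, with the other clones near 0.

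The largest fall was also on X. The transcript *mgn00215*, which lies within the extent of *bves* and has no assigned role, had 93.3 and 84.9 CPM in S2 and 2.08 and 1.18 CPM in A7 (log2FC -5.49 ± 0.23, adjusted p = 1.68e-05). It averaged 0.638 CPM in G3 and 111 CPM in B2, so it was nearly lost in A7 and G3 only among the 3 clones. *bves* itself, a membrane protein of the Popeye family, had 109 and 109 CPM in S2 and 194 and 176 CPM in A7 (log2FC 0.77, adjusted p = 0.00746).

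Called genes lay beside each other more than once. Of the 257 rises, 88 had the next or previous tested gene of the arm called in the same direction (34.2%, beside 5.05% of all tested genes with a rise next to them), and of the 96 falls 31 did (32.3%, beside 1.97% with a fall next to them). Overlapping genes are counted in these shares. The longest run of rises held *CG43338*, *CG43339*, *Mst36Fb*, and *Mst36Fa* on 2L, at log2FC of 0.72 to 1.17. Chromosome 4, the small and largely heterochromatic chromosome, had 17 rises and 1 fall, *Kif3C*, among 85 tested genes. Over all tested genes the shares were 2.67% and 0.999%. X held 1557 of the tested genes, with 53 rises (3.4%, beside 2.53% on the other arms) and 27 falls (1.73%, beside 0.857%), and 14 of these falls lay in the stretch from *CG14200* to *Cyp6v1*, picked after the values were seen. In that stretch 71 of 82 tested genes had a log2FC below 0, with a median of -0.45 in A7, -0.56 in G3, and 0.04 in B2. Neighbouring genes with overlapping extents can share reads, and merging overlaps left 237 rising and 88 falling loci.

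Reads on the strand opposite to a gene changed as well. Of 12610 genes tested on antisense counts, 144 were higher in A7 (1.14%) and 119 lower (0.944%), with a median log2FC of -0.11 over all of them, and at an unadjusted p under 0.05 the numbers were 498 and 749. Which direction was more frequent depended on the scaling and on 1 library, with 147 higher and 172 lower under RLE factors, 184 and 134 by library size alone, and 225 and 402 without S2 replicate 2. The extent of 43 of the 144 higher genes (29.9%) overlapped a gene whose sense counts rose, beside 1.35% of all genes tested on antisense counts. Where such genes lie on opposite strands, the same reads may be counted for both, but the treatment of overlaps is not given. Antisense reads of *z*, 75.8 and 18.1 CPM in S2 and 2644 and 1963 CPM in A7 (log2FC 5.60), lie within *boi*. The edgeR fit gave these counts a single shared spread, so the adjusted p-values are very small and only sizes are given. The replicates of S2 mattered here, because without S2 replicate 2 the number of calls was 627 instead of 263, and without any other of these 4 libraries it was between 136 and 152.

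Other antisense changes lay in neighbouring genes. None of those named next had a sense call of its own, but *Npc2g*, *Npc2h*, *CR43238*, and *BicC* were too low on the sense strand to be tested. *Npc2g*, *Npc2h*, and *CR43238* follow each other on 3R just after *CG15543*, from 26570326 to 26572894. Antisense reads of *Npc2g* were 1.76 and 4.02 CPM in S2 and 443 and 214 CPM in A7 (log2FC 6.15 ± 0.45), those of *Npc2h* had a log2FC of 5.55, and those of *CR43238* 5.46. *CG5404*, *CG5399*, and *pxb*, from 11491879 to 11534156 on 3R, formed a second group with log2FC of 5.56, 4.41, and 4.52. Among the falls, antisense reads of *BicC* went from 39.6 and 46.2 CPM to 0 in both A7 libraries, at least 25.0-fold lower against 3 counts over the line. Its neighbours on 2L *beat-Ia* and *beat-Ic* had log2FC of -4.03 and -3.93. G3 and B2 were low here as well, with log2FC of -3.0 and -2.7 for *BicC*, -4.0 and -3.0 for *beat-Ia*, and -3.3 and -4.4 for *beat-Ic*. On 3R, *CG15544* (292 and 549 CPM against 16.2 and 13.2 CPM) and the adjacent *cindr* had log2FC of -4.42 and -3.79. Against the same S2 libraries *CG15544* and *cindr* had log2FC of -4.4 and -4.5 in G3 and of 1.2 and 1.1 in B2.

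**Figure D5:**
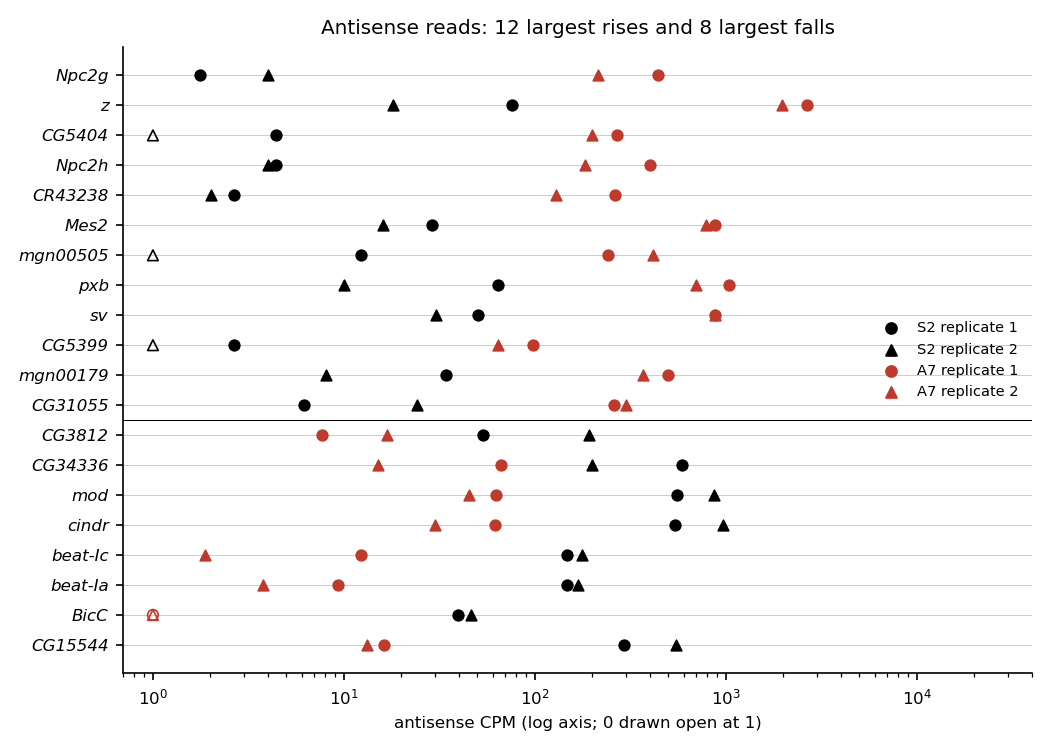
Antisense CPM (log axis) of the 12 genes with the largest rises (above the line) and the 8 with the largest falls (below it), with S2 in black, A7 in red, circles for replicate 1, triangles for replicate 2, and an open symbol at 1 for a value of 0. A7 lies to the right of S2 in each of the upper genes, from *Npc2g* to *CG31055*, and to the left in each of the lower genes, with *BicC* at 0 in both A7 libraries.

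A7 was also set against the mean of G3 and B2 in the same fit, which leaves the S2 libraries out of the contrast. G3 and B2 can lie far apart, so a gene may pass although A7 lies close to one of them. Here 228 genes were higher in A7 (2.37%) and 125 lower (1.3%). Among the genes that rose in A7 against S2, the median log2FC against S2 was 1.48 in A7, 0.67 in G3, and 0.24 in B2, and among those that fell it was -0.72, -0.53, and -0.14. These values share the S2 libraries and the genes were picked on A7, so they are given as levels only.

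Calls depended on the replicate block and on single libraries more than on scaling. Of the 87 called genes named by the rule, 22 kept the call under each alternative that was run, namely *CG15543*, *CG41378*, *net*, *boi*, *CG17839*, *CG43693*, *Slc45-1*, *Cg25C*, *out*, *Kal1*, *BoYb*, *AGO3*, *tsh*, *CG12880*, *E23*, *del*, *CG8193*, *bnl*, *CG30497*, *fz2*, *Pxn*, and *mgn00215*. On leaving out each of the 4 libraries in turn, 11 of these 87 lost the call every time, namely *ush*, *pyd*, *pho*, *grp*, *fz3*, *crq*, *Vha100-2*, *Pros26.4*, *Dys*, *Cyp6v1*, and *Act5C*, another 21 lost it in 3 of the 4 cases, and 18 in 1 or 2. The rises numbered 155 without A7 replicate 1, 138 without S2 replicate 1, and 168 without S2 replicate 2, and the falls 30 without A7 replicate 1, 59 without A7 replicate 2, and 18 without S2 replicate 1.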

How the data were processed

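Nascent RNA was sequenced as strand-specific libraries. Per the paper and labels, the authors trimmed adaptors, aligned reads to dm3 with Bowtie (0.12.7 in the submitters' processing notes, which also list bedtools), kept uniquely aligned reads, and deposited raw read counts per gene and strand for 15998 genes, without normalization. The counting program and its treatment of introns and overlaps are not given in the sources used here. Column names number the second series r3, and these columns were taken as replicate 2.

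Genes that reached 1 CPM in 2 or more of the 8 libraries were tested with edgeR 4.0.16 (R 4.3.3), TMM factors of 0.949 to 1.065, and a quasi-likelihood F-test with cell line and replicate as terms over all 8 libraries, which left 3 residual degrees of freedom, with a prior count of 2. Antisense counts were fitted alike with their own totals. Replicates pair by the data: same-numbered libraries deviated together, with Pearson's r of 0.5 to 0.633 in the 6 pairs of lines (0.556 for S2 and A7). P-values were adjusted by Benjamini-Hochberg with a threshold of 0.05, and standard errors were derived from the F statistic.

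Named genes were *upSET*, the 12 largest rises and falls, called members of 41 gene lists, the 8 called genes with the highest CPM, and the 5 with the lowest adjusted p in each direction, and the 8 largest also called against G3 and B2. The comparison, its lists, and its tests were chosen with earlier results of these data known. The fit was also run on simulated counts whose spread was set by the mean level of a gene, not by that gene's own spread. The simulation therefore does not check the calls given here. DESeq2 1.42.0 was an alternative.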

Additional observations from a re-analysis of the deposited data

Results flagged for a closer look

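Of the 88 genes named by the rule, 48 differed between A7 and the mean of G3 and B2 in the same edgeR fit (highest adjusted p = 0.0436), beside 3.67% of all tested genes. The genes were named for their change in A7, partly by this same contrast, so the count is no evidence of its own. In 44 of the 48 the A7 average lay beyond those of both G3 and B2, but *CG41378*, *Slc45-1*, and *Nrg* were higher still in G3 and *mgn00215* was lower still in G3. The values here are log2 differences of A7 minus that mean, and no group has enough libraries for a test of single outlying libraries.

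A7 was higher in 36 of the 48. The largest differences were *CG43693* 6.04, *CG15543* 5.97, *net* 5.13, *CG8193* 4.28, *E23* 4.00, *Actbeta* 3.51, *boi* 3.41, and *CG12880* 3.10. Differences between 1 and 3 were *out* 3.00, *tsh* 2.93, *CG17839* 2.77, *CG41378* 2.61, *Gld2* 2.43, *SKIP* 2.42, *stv* 2.40, *wb* 2.22, *BoYb* 2.02, *Kal1* 1.86, *bnl* 1.45, *Slc45-1* 1.43, *AGO3* 1.42, *Dif* 1.04, and *fz2* 1.00. Differences under 1 were *Nrg* 0.96, *CG30497* 0.82, *CR43650* 0.82, *dlp* 0.81, *Pvf2* 0.75, *zfh1* 0.75, *Fas2* 0.70, *CG30015* 0.60, *Rfabg* 0.56, *ct* 0.49, *CG42674* 0.39, *Akap200* 0.36, and *ush* 0.35.

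A7 was lower in the other 12, which were *CG2930* -2.57, *mgn00215* -2.42, *yin* -2.42, *ec* -2.24, *CG2901* -2.19, *Pxn* -1.24, *Cyp4d20* -1.20, *dp* -0.84, *CG1399* -0.70, *Psa* -0.69, *mld* -0.68, and *Vha100-2* -0.53. The strongest of these were *CG2930*, *yin*, *ec*, and *CG2901* around *roX1*, and *mgn00215*.

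Of the 20 genes named on antisense counts, 16 differed in the same way (highest adjusted p = 3.7e-10, in a fit with a single shared spread), and in *Mes2*, *mgn00505*, and *cindr* the G3 average lay beyond that of A7. The higher ones were *CG5404* 6.37, *Npc2g* 6.16, *Npc2h* 5.98, *CR43238* 5.52, *pxb* 5.03, *CG5399* 4.83, *z* 4.70, *sv* 4.23, *CG31055* 3.21, *mgn00505* 2.35, *mgn00179* 2.34, and *Mes2* 1.81. The lower ones were *CG15544* -2.83, *CG34336* -2.56, *cindr* -2.10, and *mod* -1.90.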

How the results depend on the processing

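The direction of each of the 87 called named genes was kept under all alternatives. The Hox list median, -1.12, turned to 0.49 without S2 replicate 1 and to 0.27 at a CPM of at least 5, and falls outnumbered antisense rises (119 and 144) under RLE factors (172 and 147) and without S2 replicate 2 (402 and 225). Leaving out the replicate block changed most: 34 rises, 2 falls, 37 antisense calls (263 with it), and 35 calls against G3 and B2 (353 with it), and 65 of the 87 named genes lost the call, 15 of them under this alternative only. Testing all 14902 genes with at least 1 count gave 419 rises, 228 falls, and 550 calls against G3 and B2. DESeq2 gave 295 rises and 91 falls (240 of the rises shared) but 102 antisense calls, a fit of the 4 libraries alone gave 130, and an antisense CPM of at least 10, added after seeing the data, gave 134 (84 higher and 50 lower). Library size alone, RLE factors, and a CPM of at least 5 left the other counts within 1.5 times. Leaving out 1 library gave 138 to 186 rises, 18 to 84 falls, 136 to 627 antisense calls, and 133 to 321 calls against G3 and B2. These last were 219 and 161 without A7 replicate 1 or 2 and 151 and 133 without B2 replicate 1 or 2, and the antisense calls were 136 and 137 without A7 replicate 1 or 2 and 152 and 627 without S2 replicate 1 or 2. Named genes lost the call in 34 and 27 cases without A7 replicate 1 or 2 and in 45 and 28 without S2 replicate 1 or 2; the cause was not tested. The 20 named antisense genes kept theirs throughout. The smaller default prior count of edgeR, also added later, raised the fitted log2FC of genes with few counts (*CR43656* from 3.44 to 5.33, *Cyp12c1* from 3.61 to 4.64) and moved *Dbx* from -3.78 to -4.96. Depth limits genes under about 3 counts per library.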

Other observations

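Noncoding RNA genes gave few calls. Of 259 tested snoRNA genes 0 rose and 2 fell (median log2FC 0.16), of 75 microRNA genes *mir-2279* on 2RHet rose (3.71 and 5.82 CPM in S2, 10.95 and 11.8 CPM in A7, log2FC 1.25, adjusted p = 0.0203) inside *MFS17*, which rose too (1.43), and of 95 unnamed noncoding genes 3 rose (median 0.09). One of these was *CR43656* on X, which had 1 count in S2 and 57 in A7, a ratio of 49.8 (95% counting interval 8.58 to 2000). It lies within *CG42346* (log2FC 3.26). *CR43497*, which lies within *CG32700* (1.93), and *CR43650* had log2FC of 1.95 and 1.06. Reads of such a gene cannot be told apart from those of its host where both are on the same strand. *snoRNA:Psi18S-920*, which guides modification of ribosomal RNA, fell from 108 and 94.9 CPM to 52.1 and 59.4 CPM (log2FC -0.88, adjusted p = 0.0344), and its call was lost without A7 replicate 1 (0.146), A7 replicate 2 (0.154), or S2 replicate 1 (0.239). It lies within *RpL10Ab*, which fell too (log2FC -0.56).

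Several long, strongly transcribed genes moved with a small spread. *CG30497* had 1117 and 932 CPM in S2 and 3631 and 3071 CPM in A7 (log2FC 1.71 ± 0.12), and *CG30015* had 944 and 676 CPM in S2 and 2494 and 1801 CPM in A7 (log2FC 1.41 ± 0.10). *Akap200*, an anchor of protein kinase A, and *pyd*, a junction scaffold, had log2FC of 0.44 and 0.43. In the other direction, *Psa*, an aminopeptidase, had 417 and 490 CPM in S2 and 208 and 232 CPM in A7 (log2FC -1.04 ± 0.11), *CG1399* had a log2FC of -0.82, *dp*, a giant matrix protein of epithelia, -0.69, and *Dys*, dystrophin, -0.43. The weakly transcribed *Lapsyn*, a leucine-rich repeat protein of synapses, had 9.16 and 9.71 CPM in S2 and 1.42 and 1.96 CPM in A7 (log2FC -2.35, adjusted p = 0.0142).

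The remaining lists gave at most 1 call each. Their medians were not all near the -0.04 of all tested genes. The median was 0.30 for odorant, gustatory, and ionotropic receptors and 0.22 for trypsin and serine protease genes. *stv*, a cochaperone, was the 1 called of 18 tested heat shock genes (log2FC 2.10), and *mRpL39* the 1 of 72 mitochondrial ribosomal protein genes (0.88). *Gr94a* was the 1 of 34 odorant, gustatory, and ionotropic receptor genes (-0.78), and *Actbeta* the 1 of 17 TGF-beta genes. The calls of *stv*, *mRpL39*, and *Gr94a* were lost under DESeq2 and in edgeR without the block (adjusted p = 0.453, 0.197, and 0.86). Without A7 replicate 1 their log2FC were 1.306, 0.619, and -0.465. Of 15 JAK/STAT and JNK, 14 Notch, 19 glutathione S-transferase, 7 trypsin and serine protease, and 21 aminoacyl-tRNA synthetase genes 0 were called by edgeR or DESeq2, and 4, 1, 3, 1, and 6 had an unadjusted p under 0.05.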
